A study of Rattus norvegicus with 4 samples.

Results

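The genes described here encode potassium channels, voltage-gated calcium channels and TRP channels of the TRPC, TRPM and TRPV groups. They were picked from the deposited gene table by a rule on gene symbols, chosen with earlier results of these data known. It took every gene whose symbol is built as Kcn, Cacn, Trpc, Trpm or Trpv with its subunit letters and number. The pericyte inward rectifier gene Kcnj8 was excepted. The rule gave 131 of 23608 genes, of which 91 are potassium, 21 calcium and 19 TRP channel genes. It leaves out the Cacna2d subunits and Trpa1, whose symbols are built otherwise, and Trpc1 was not analysed here. In all, 43 of the 131 reached the expression minimum of 1 CPM (the count scaled to library size) in at least 1 library and were compared between libraries.

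The samples were 4 RNA-seq libraries of wild-type primary vascular cells, grown as microvessels out of rat subcutaneous connective tissue. The matrix was soft or stiff, and on each matrix 1 library was made without and 1 with A83-01, a compound that blocks the TGF-beta type I receptor kinases. The study asked how matrix stiffness and this inhibitor act on microvessels and on the change of pericytes into myofibroblasts. Rat strain, age and number, matrix stiffness and inhibitor dose are absent from the labels, as is whether the libraries came from separate cultures. Each group is a single library, so a difference between a pair of them lacks a replicate check and compares those libraries. Since the stiff pair carries sample codes of one form and the soft pair codes of another, a preparation made separately cannot be told apart from stiffness. In mixed cells, fewer cells of a type and less RNA per cell cannot be told apart either.

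Ion channels set the membrane potential and the calcium entry of vascular cells. In contractile mural cells, depolarisation opens L-type and T-type voltage-gated calcium channels, and the calcium that enters drives contraction through calmodulin and myosin light chain kinase. Potassium channels carry current out of the cell and oppose this, while most TRP channels let sodium and calcium in and depolarise the cell. Endothelial cells largely lack voltage-gated calcium entry and rely on inward rectifier and calcium-activated potassium channels and on TRP channels, among them the mechanically and osmotically gated TRPV4.

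The libraries held between 32271844 and 33416200 counts. An observed 0 allows up to 3 counts, which corresponded to between 0.0842 and 0.103 CPM, and this limit, like the intervals given below, covers counting error only. The labelled vascular identity was checked against marker genes. All 10 endothelial markers found in the table, Cdh5 and Tie1 among them, and all 10 mural markers had counts. Markers of other cells were present as well. Fibroblast markers summed to between 42065 and 125055 CPM, most of it Col1a1, Col3a1 and Dcn. Of the 8, Dcn and Pdgfra fell and Mfap5 rose on stiff matrix, and their part in the channel results was not tested. Leukocyte markers summed to between 58.5 and 130.3 CPM with the T-cell gene Cd3e at 0. Schwann cell and nerve markers summed to between 60.5 and 175 CPM, and skeletal muscle markers to between 5.11 and 10.4 CPM. Adipocyte markers summed to between 16.5 and 48.1 CPM, and 2 of the 7 fell on stiff matrix. The part of adipocyte markers in the channel results was not tested. Keratinocyte markers summed to between 2.20 and 2.69 CPM, with Krt5, Krt14 and Cdh1 at 0.

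Sequences upstream of the gene start are shown for the channel genes that passed the stiffness test, Kcnd3, Kcnmb1 and Trpv2, and for Kcnip1, which overlaps Kcnmb1 on the opposite strand. Each is the 250 bases before the RefSeq gene start in assembly GRCr8, read 5′ to 3′ on the gene's own strand, and capitals mark a match to a searched motif. The motifs, searched on both strands, were the CArG box bound by serum response factor, GGAATG (TEAD), CAGACA (SMAD), TGACTCA (AP-1) and TGTTTA (forkhead).
Kcnd3, chr2:195626066-195626315 (plus strand): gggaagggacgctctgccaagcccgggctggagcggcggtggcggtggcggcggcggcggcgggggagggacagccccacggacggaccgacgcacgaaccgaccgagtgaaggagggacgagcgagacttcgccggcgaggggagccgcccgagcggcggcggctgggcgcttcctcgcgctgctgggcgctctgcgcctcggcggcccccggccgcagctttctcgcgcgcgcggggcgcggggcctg
Kcnmb1, chr10:19061849-19062098 (plus strand): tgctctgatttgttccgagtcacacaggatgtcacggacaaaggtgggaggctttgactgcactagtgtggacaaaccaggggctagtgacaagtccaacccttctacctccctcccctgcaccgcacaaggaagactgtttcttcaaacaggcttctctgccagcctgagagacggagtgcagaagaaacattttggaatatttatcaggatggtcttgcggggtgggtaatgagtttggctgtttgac
Trpv2, chr10:47771973-47772222 (plus strand): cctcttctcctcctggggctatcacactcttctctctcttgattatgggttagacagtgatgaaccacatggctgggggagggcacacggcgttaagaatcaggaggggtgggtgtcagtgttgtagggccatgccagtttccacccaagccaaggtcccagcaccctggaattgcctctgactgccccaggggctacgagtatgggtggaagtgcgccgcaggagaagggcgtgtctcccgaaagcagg
Kcnip1, chr10:18940810-18941059 (minus strand): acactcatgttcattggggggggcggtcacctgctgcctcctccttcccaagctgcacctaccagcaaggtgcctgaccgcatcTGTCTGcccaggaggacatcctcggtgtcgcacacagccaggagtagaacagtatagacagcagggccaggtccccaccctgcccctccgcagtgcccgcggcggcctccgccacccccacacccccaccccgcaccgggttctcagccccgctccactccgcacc
The Kcnip1 window is that of the start nearer to the end of the gene, and its SMAD letters lie 166 bases before that start. A second Kcnip1 window, chr10:19093026-19093275 (minus strand), held no match. GC content was 79.6% for Kcnd3, 50.8% for Kcnmb1, 58.4% for Trpv2 and 67.6% for the printed Kcnip1 window, against a median of 51.2% over 33469 windows of this length in the RefSeq table. Windows were found for 93 of the 131 channel genes, 103 windows in all. The CArG box was in 0 of these 103 windows and in 1.5% of all windows, TEAD letters were in 11.7% and 12.1%, SMAD letters in 16.5% and 17.2%, AP-1 letters in 1.94% and 4.05%, and forkhead letters in 4.85% and 12.1%. A match describes letters in the window and no more.

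A few genes supplied most of the channel transcripts. Levels of different genes are compared here as FPKM, the authors' count scaled by transcript length and library size, and 4 values in a row are always given first for soft matrix without and with A83-01 and then for stiff matrix without and with it. The 8 channel genes with the highest level took 77.1%, 78.1%, 71.6% and 75.6% of the summed FPKM of all 131. The accessory potassium channel subunit gene Kcne4 stood at 21.4, 31.8, 8.93 and 38.7 FPKM, and Kcne3, which encodes a related single-span subunit, at 25.8, 11.8, 21.0 and 18.8 FPKM. Cacnb3, a cytoplasmic beta subunit that brings calcium channel pores to the membrane, stood at 25.9, 19.6, 21.4 and 16.4 FPKM. Trpv2, a cation channel of the vanilloid group, stood at 8.39, 10.7, 12.1 and 19.4 FPKM.

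**Figure D1:**
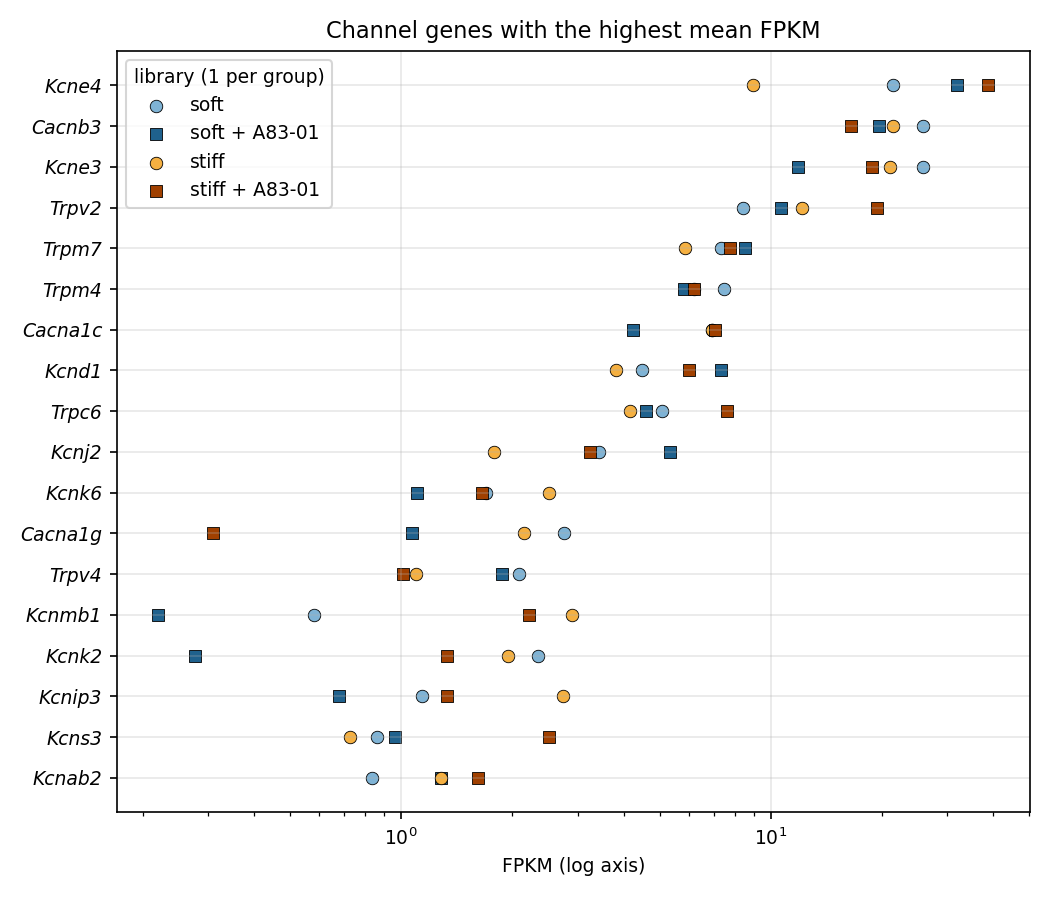
FPKM (log axis) of the 18 channel genes with the highest mean over the 4 libraries, 1 point per library. Kcne4, Cacnb3, Kcne3 and Trpv2 lie at the top, Kcne4 is lowest in the stiff library at 8.93 FPKM and highest in stiff with A83-01 at 38.7 FPKM, and Cacna1g is lowest in stiff with A83-01 at 0.310 FPKM.

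Below these came further genes for channel pores. The magnesium- and calcium-permeable channel kinase gene Trpm7 stood at 7.32, 8.52, 5.86 and 7.74 FPKM and Trpm4, a calcium-activated sodium-conducting channel, at 7.48, 5.81, 6.19 and 6.19 FPKM. Cacna1c, the L-type pore, stood at 6.94, 4.25, 6.93 and 7.08 FPKM, and Kcnd1, a pore of fast-inactivating A-type potassium channels, at 4.48, 7.32, 3.81 and 6.01 FPKM. Trpc6, a diacylglycerol-gated channel of mural cells, stood at 5.07, 4.60, 4.16 and 7.61 FPKM, and Kcnj2, the classical strong inward rectifier of vascular cells, at 3.42, 5.35, 1.79 and 3.23 FPKM. The mean FPKM of every other channel gene was below that of Kcnj2. On the per-length scale, Cacnb3 therefore stood above Cacna1c in all 4 libraries, and Kcne3 and Kcne4 above each potassium channel pore gene chosen here. Not every accessory gene did so: Kcnip3, for a subunit of A-type channels, lay below Kcnd1 throughout, at 1.14, 0.679, 2.74 and 1.33 FPKM.

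Many channel genes had few or no counts. In total, 38 of the 131 had 0 counts in all 4 libraries and 28 more had under 10 counts in each. Among voltage-gated potassium channel pores 12 of 29 were at 0 in all, among inward rectifiers 5 of 14 and among TRPC genes 2 of 5. Kcnma1, the pore of the large-conductance calcium-activated (BK) channel, had 0, 2, 0 and 2 counts, although the gene of its smooth muscle beta subunit, Kcnmb1, had 33, 13, 160 and 117. Kcna5, a delayed-rectifier pore of arterial muscle, had 0, 2, 0 and 0 counts, Kcnq1 had 0, 4, 6 and 9, and Kcnn4, the intermediate-conductance channel of endothelium and proliferating cells, had 0, 4, 13 and 4. Trpc4 had 0, 0, 2 and 2 counts. Kcna2, Kcnk1, Kcnn2 and Kcnmb2 were at 0 throughout. Of these, Kcnn4 was 4.99-fold and Kcnq1 2.30-fold higher in stiff than in soft, set against the 3 counts that a 0 allows. The counting interval of the observed counts began at 3.51 for Kcnn4 and at 1.36 for Kcnq1, with no upper end. A further set lay just under the minimum, including the accessory Kcnab1 (24, 26, 29 and 34 counts), the BK subunit gene Kcnmb4 (18, 7, 17 and 34) and the L-type pore gene Cacna1d (14, 10, 10 and 26).

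**Figure D2:**
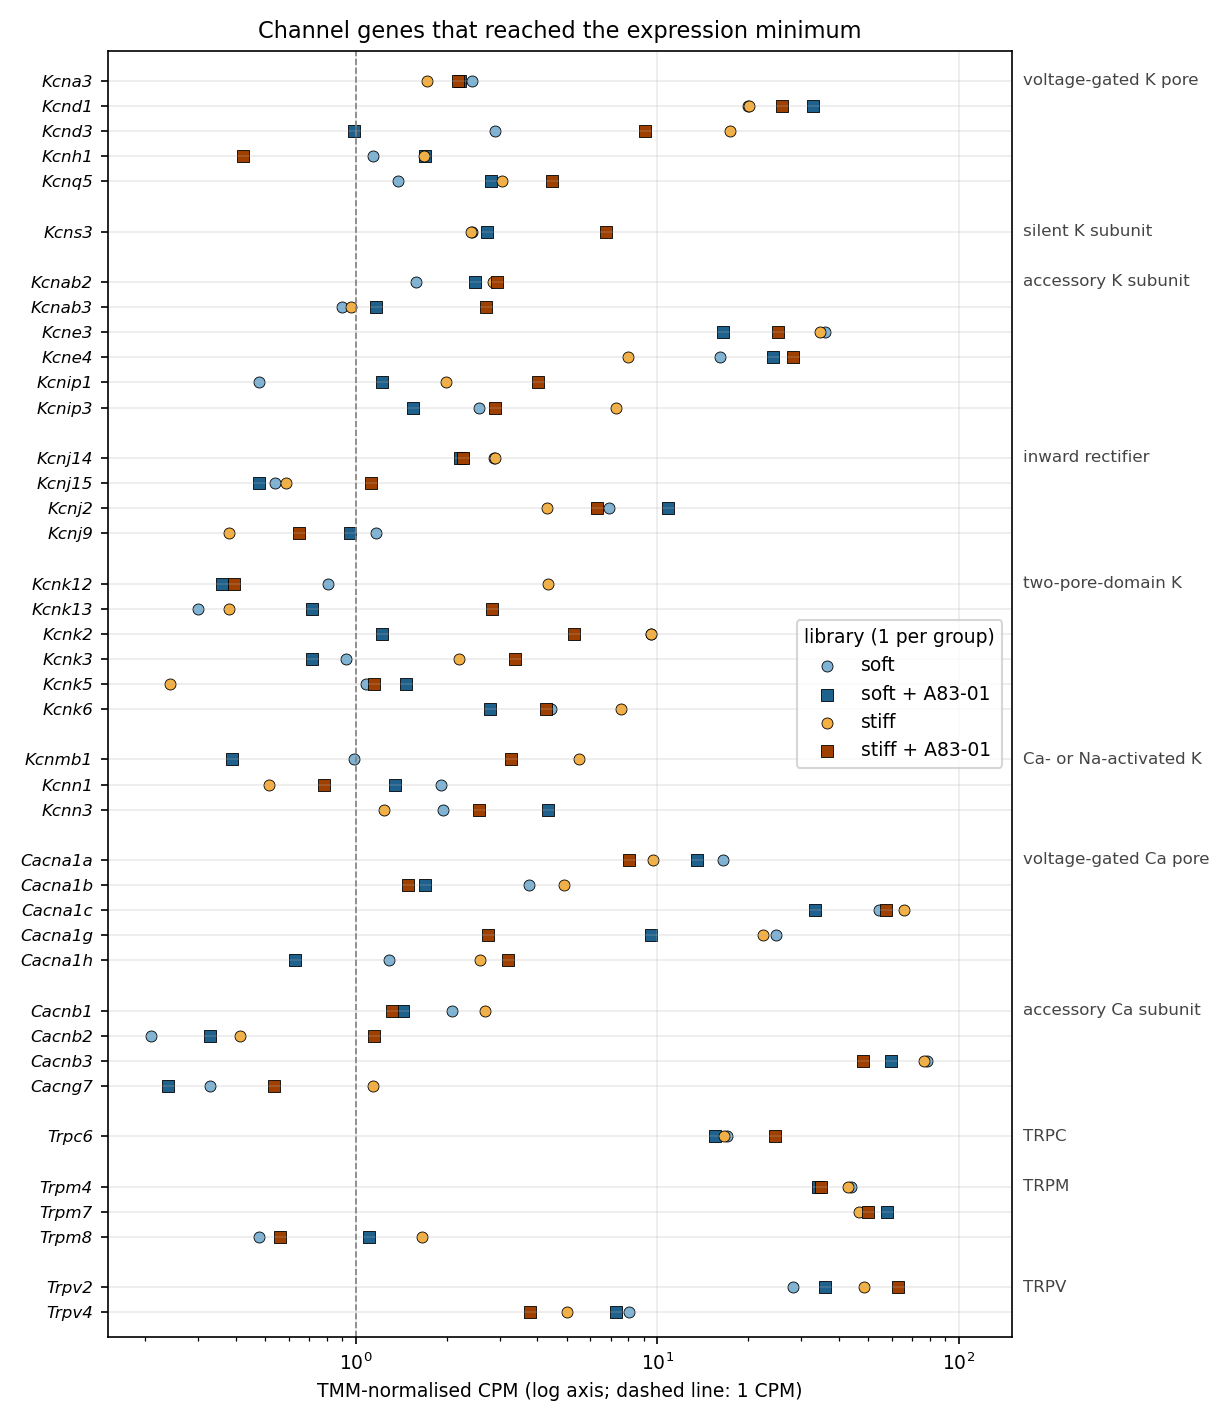
TMM-normalised CPM (log axis) of 40 of the 43 channel genes that reached 1 CPM (dashed line) in at least 1 library, grouped by role, with 1 point per library. In Kcnd3, Kcnmb1 and Trpv2 both stiff libraries (orange and brown) lie to the right of both soft libraries (light and dark blue), and in Cacna1g the A83-01 libraries (squares) lie to the left.

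Stiffness was tested over all 4 libraries with A83-01 as a block, by the quasi-likelihood test of edgeR (Benjamini-Hochberg adjusted) over all 13634 genes and 1 residual degree of freedom. Of the 43 channel genes tested, 3 rose on stiff matrix (6.98%) and 0 fell, where 2.35% of all genes tested rose, 3.29% fell and 5.64% did either. The genes were Kcnd3, Kcnmb1 and Trpv2, and DESeq2 and limma-voom called the same 3 up and 0 down. Over all genes DESeq2 called 4.17% up and 5.41% down, and limma-voom 3.43% up and 4.56% down. At unadjusted p under 0.05 the quasi-likelihood test put 11 channel genes higher and 3 lower, against 12.1% and 13.2% of all genes tested. The median log2 difference of the 43 was 0.40, beside 0.01 over all genes tested. Of the 43, 8 reached the minimum in a single library, 5 of them in stiff with A83-01, and such genes had to differ, so these counts and medians describe the list and support nothing about it. Without A83-01 in the model, the quasi-likelihood test called 0 of the 43. The share of all genes called in that model was not counted, so this 0 cannot be set against it.

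Library pairs gave the sizes. Between stiff and soft without inhibitor, 10 of the 43 were higher by 2-fold or more and 4 lower by as much, each with equality outside its 95% counting interval, where 5.33% and 8.58% of all genes were. Scaled by total counts alone, which shifted the all-gene median log2 ratio by −0.23, 6 were higher and 5 lower. The share over all genes was not counted at that scaling. With A83-01 in both libraries, 12 were higher on stiff matrix by 2-fold or more and 2 lower, where 6.88% and 6.72% of all genes were. Both pairs put 5 genes at least 2-fold higher, among them Kcnd3, Kcnmb1, Kcnip1 and Kcnk3, and 0 at least 2-fold lower, where 2.77% and 4.42% of all genes were. These pairs share no library.

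**Figure D3:**
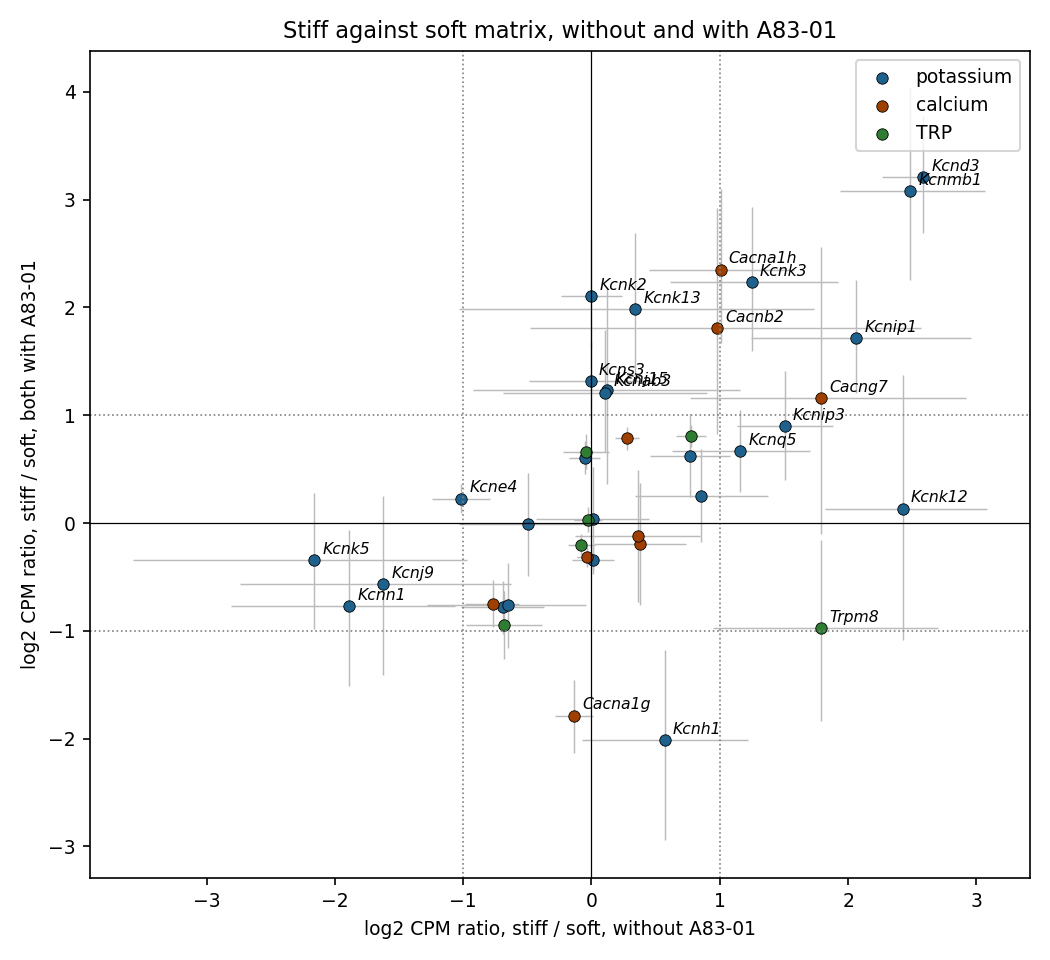
log2 CPM ratio of stiff against soft for 40 of the 43 channel genes, without A83-01 (horizontal) and with A83-01 in both libraries (vertical), with 95% counting intervals as grey bars, 2-fold as dotted lines and names for genes at least 2-fold apart in either pair. Kcnd3 and Kcnmb1 lie at the upper right, 6.0-fold and 5.58-fold higher without and 9.26-fold and 8.46-fold higher with the inhibitor, and no named gene lies past the dotted lines at the lower left.

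The inhibitor was tested in the same model with stiffness as a block. By the quasi-likelihood test of edgeR (Benjamini-Hochberg adjusted), 0 of the 43 channel genes rose and 0 fell with A83-01, where 0% and 0.044% of all genes tested did. At unadjusted p under 0.05 that test put 7 higher and 11 lower, against 7.25% and 6.04% of all genes tested. DESeq2 called Kcne4 up and Cacna1g and Kcnk2 down, with 1.64% and 1.76% of all genes called up and down, and limma-voom called 0 channel genes, with 0% of all genes up and 0.022% down. The median log2 difference of the 43 was 0.10, beside 0.01 over all genes.

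On stiff matrix, 9 of the 43 were at least 2-fold higher and 7 lower in the A83-01 library, where 7.8% and 4.47% of all genes were. On the log2(FPKM + 0.1) scale, which shifted the all-gene median by 0.29, that split was 11 higher and 4 lower, with no all-gene share counted. On soft matrix, 4 were at least 2-fold higher and 7 lower, where 2.18% and 2.44% of all genes were. In both matrices Kcnn3 and Kcnk13 were at least 2-fold higher, where 1.29% of all genes were, and Cacna1b, Cacna1g and Kcnk12 at least 2-fold lower, where 1.39% were. The summed endothelial markers stood at 1840.3, 1866, 1452 and 2515 CPM, highest in stiff with A83-01 and carried mostly by Cdh5, at 1325 CPM there. Vwf, at 126, 48.0, 31.2 and 18.6 CPM, and Plvap, at 61.6, 53.1, 31.1 and 21.9 CPM, were instead lowest in that library, and both fell in the stiffness test. Kdr stood at 210, 248, 106 and 157 CPM. The part of endothelial markers in the inhibitor differences was not tested.

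**Figure D4:**
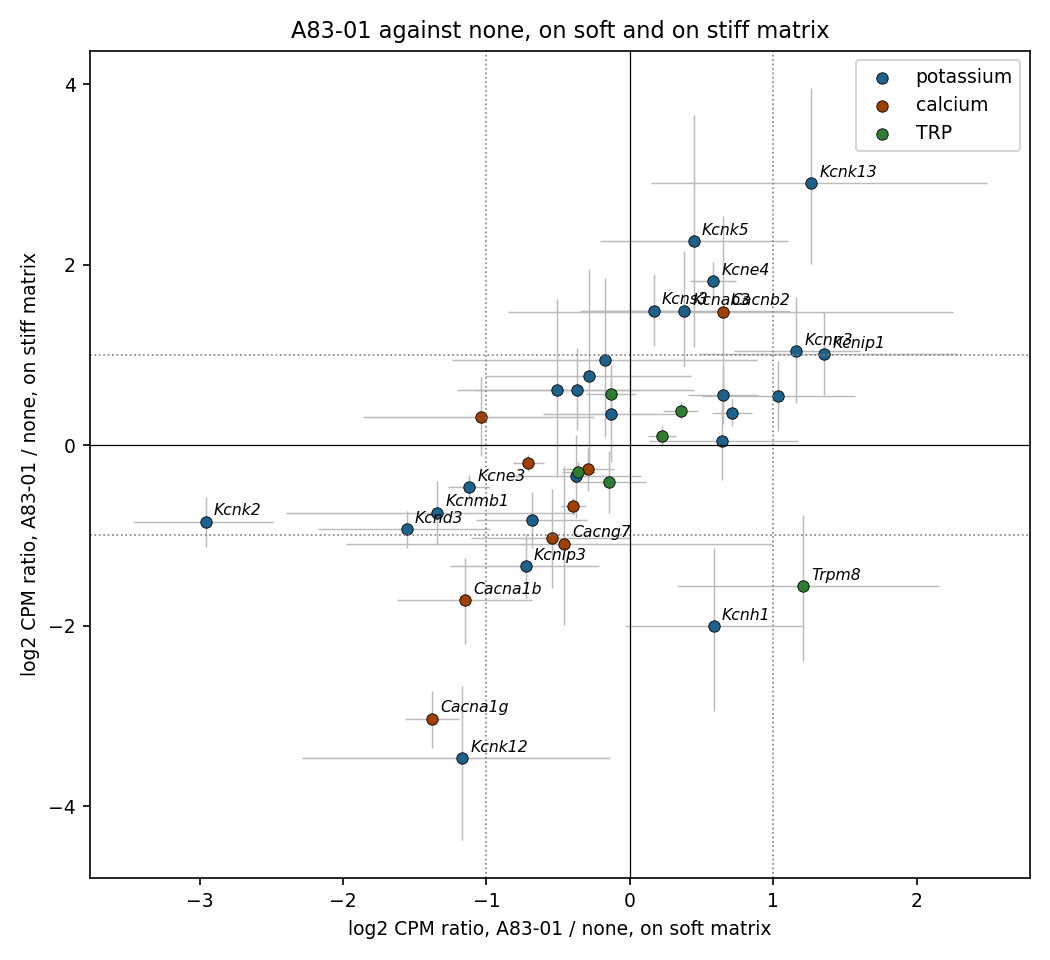
log2 CPM ratio of A83-01 against none for 40 of the 43 channel genes, on soft matrix (horizontal) and on stiff matrix (vertical), with 95% counting intervals as grey bars, 2-fold as dotted lines and names for genes at least 2-fold apart in either pair. Cacna1g and Kcnk12 lie lowest, 8.17-fold and 11.0-fold lower on stiff matrix, and Kcnk2 lies farthest left, 7.76-fold lower on soft matrix.

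Among voltage-gated potassium channel pores, Kcnd3 rose on stiff matrix. Kcnd3 encodes a pore of A-type channels, which open and inactivate quickly on depolarisation. It stood at 2.90, 0.985, 17.4 and 9.12 CPM, with both stiff libraries above both soft libraries and the A83-01 library the lower of the pair on each matrix. It was 6.0-fold higher (4.82 to 7.53) on stiff than on soft matrix and 9.26-fold higher (6.46 to 13.7) with A83-01 in both. Here and below, parentheses hold the 95% counting interval. By the quasi-likelihood test of edgeR (Benjamini-Hochberg adjusted) the stiffness difference was log2 2.86, SE 0.258, adjusted p = 0.0148. With A83-01 it was 1.91-fold lower (1.65 to 2.20) on stiff and 2.94-fold lower (1.96 to 4.51) on soft matrix, and in that Benjamini-Hochberg adjusted quasi-likelihood test the inhibitor difference did not pass (log2 −1.19, SE 0.249, adjusted p = 0.199).

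Its relative Kcnd1 did not share this pattern. Kcnd1 stood at 20.0, 32.8, 20.2 and 25.9 CPM, with soft and stiff alike without inhibitor and both A83-01 libraries above them. Per length, Kcnd1 exceeded Kcnd3 in all 4 libraries, and the ratio of their FPKM values narrowed from 12.8 in soft to 2.13 in stiff, and from 62.6 to 5.21 with A83-01. The A-type channels carry accessory calcium-binding proteins, the KChIPs, encoded by the Kcnip genes. Kcnip1 stood at 0.478, 1.22, 2.0 and 4.01 CPM and was 4.17-fold higher (2.37 to 7.78) on stiff matrix and 3.28-fold higher (2.30 to 4.76) with A83-01 in both, but did not pass the quasi-likelihood test of edgeR (Benjamini-Hochberg adjusted) (log2 1.86, SE 0.375, adjusted p = 0.0632). Kcnip3 stood at 2.57, 1.55, 7.29 and 2.89 CPM, highest in the stiff library alone. It was 2.84-fold higher (2.20 to 3.69) there than in soft and 2.52-fold lower (1.99 to 3.23) with A83-01 on stiff matrix. Kcnip2 had 31, 21, 9 and 10 counts and Kcnip4 4, 0, 8 and 6. With A83-01, Kcnip1 was 2.01-fold higher (1.47 to 2.78) on stiff and 2.56-fold higher (1.41 to 4.89) on soft matrix, while Kcnip3 was lower in both A83-01 libraries.

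Kcnip1 and Kcnmb1 lie over one another on opposite strands in RefSeq, and the labels name no strand-marking step. Reads in the shared stretch may therefore have been counted to either gene, and both counts are uncertain. Kcnmb1 stood at 0.986, 0.388, 5.50 and 3.28 CPM. The 2 genes had the same order of matrices, stiff above soft, and the opposite order with the inhibitor, where Kcnmb1 was 1.68-fold lower (1.31 to 2.15) on stiff and 2.54-fold lower (1.30 to 5.26) on soft matrix.

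Kcnmb1 encodes the BK channel subunit that raises calcium sensitivity in smooth muscle, and it rose on stiff matrix. Both stiff libraries lay above both soft libraries. It was 5.58-fold higher (3.82 to 8.39) on stiff than on soft matrix and 8.46-fold higher (4.76 to 16.4) with A83-01 in both, and passed the quasi-likelihood test of edgeR (Benjamini-Hochberg adjusted) (log2 2.74, SE 0.370, adjusted p = 0.0283). Smooth muscle markers had the same direction with stiffness as Kcnmb1 and Kcnd3. The 10 mural markers summed to 2870.4, 2027, 10105 and 8300.0 CPM, and 6 of them, Acta2, Myh11, Cnn1, Tagln, Des and Rgs5, rose in the stiffness test while 0 fell. With A83-01 on stiff matrix, Acta2, Myh11, Cnn1 and Tagln were lower, as Kcnmb1 and Kcnd3 were. Rgs5 (83.4 to 220 CPM) and Des (438 to 560 CPM) were higher there. The part of the mural markers in the Kcnmb1 and Kcnd3 results was not tested.

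Kcnq5, a pore of the slow M-type potassium channels that hold the resting potential, stood at 1.37, 2.81, 3.06 and 4.46 CPM, lowest in soft and highest in stiff with A83-01. It was 2.23-fold higher (1.54 to 3.25) on stiff than on soft matrix and 1.59-fold higher (1.22 to 2.07) with A83-01 in both, and did not pass the quasi-likelihood test of edgeR (Benjamini-Hochberg adjusted) (log2 0.90, SE 0.317, adjusted p = 0.173). Kcnh1, an ether-à-go-go pore, stood at 1.14, 1.70, 1.69 and 0.421 CPM and was lowest in stiff with A83-01, 4.01-fold lower (2.21 to 7.69) than in stiff and 4.04-fold lower (2.26 to 7.69) than in soft with A83-01. The lymphocyte-type pore gene Kcna3 stood at 2.42, 2.21, 1.72 and 2.19 CPM and was not 2-fold apart in any pair.

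Accessory subunits of voltage-gated potassium channels included the channel gene with the highest mean FPKM. Kcne4, which damps several potassium channel pores, stood at 16.2, 24.2, 8.02 and 28.2 CPM. It was 2.02-fold lower (1.73 to 2.37) in stiff than in soft without inhibitor and 1.17-fold higher (1.06 to 1.28) with A83-01 in both, and A83-01 accompanied a level 3.52-fold higher (3.05 to 4.08) on stiff and 1.49-fold higher (1.34 to 1.67) on soft matrix. By the quasi-likelihood test of edgeR (Benjamini-Hochberg adjusted) the inhibitor difference of Kcne4 did not pass (log2 1.19, SE 0.326, adjusted p = 0.271), while DESeq2's Wald test with that adjustment called it (adjusted p = 0.0384). Kcne3 stood at 35.9, 16.5, 34.6 and 25.2 CPM, lower in both A83-01 libraries, by 2.17-fold (1.96 to 2.41) on soft and 1.38-fold (1.26 to 1.51) on stiff matrix. The FPKM ratio of Kcne4 to Kcne3 was 0.83 in soft and 0.425 in stiff without inhibitor, and 2.69 and 2.07 with it, so the order of the 2 genes was reversed in both A83-01 libraries.

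Kcns3, a silent subunit that alters the channels of other pores, stood at 2.42, 2.72, 2.41 and 6.76 CPM, with 3 libraries alike and stiff with A83-01 apart. It was 2.81-fold higher (2.14 to 3.72) there than in stiff and 2.49-fold higher (1.95 to 3.20) than in soft with A83-01. Kcnab3, a cytoplasmic beta subunit, showed the same single high library at 0.896, 1.16, 0.963 and 2.69 CPM, 2.80-fold higher (1.82 to 4.43) in stiff with A83-01 than in stiff. Kcnab2, a related subunit, stood at 1.58, 2.48, 2.85 and 2.95 CPM and was not 2-fold apart in any pair. Its annotation overlaps Nphp4, at between 16.7 and 23.9 CPM, so part of its count may be shared. Other silent subunit genes were near the limit of detection, the most abundant being Kcng2 with 9, 4, 9 and 10 counts and Kcng4 with 4, 6, 6 and 6.

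The tandem-pore K2P channels, which carry background potassium current, differed among themselves. Kcnk2, the mechanically gated TREK channel, stood at 9.5, 1.22, 9.49 and 5.27 CPM. Soft and stiff were level, with a ratio of stiff to soft of 0.999 (0.848 to 1.18), and the A83-01 library was 7.76-fold lower (5.60 to 11.0) on soft and 1.80-fold lower (1.49 to 2.18) on stiff matrix. With A83-01 in both it was 4.31-fold higher (3.06 to 6.20) on stiff matrix. The inhibitor difference did not pass the quasi-likelihood test of edgeR (Benjamini-Hochberg adjusted) (log2 −1.82, SE 0.544, adjusted p = 0.293), and in DESeq2's Wald test with the same adjustment it did (adjusted p = 0.0265). Kcnk3, an acid-sensitive TASK channel of vascular muscle, stood at 0.926, 0.716, 2.20 and 3.37 CPM and was 2.38-fold higher (1.52 to 3.78) on stiff than on soft matrix and 4.70-fold higher (3.01 to 7.62) with A83-01 in both, without passing the quasi-likelihood test of edgeR (Benjamini-Hochberg adjusted) (log2 1.74, SE 0.438, adjusted p = 0.0960). Kcnk6, of the TWIK group, stood at 4.45, 2.78, 7.57 and 4.26 CPM, highest in stiff, and stayed within 2-fold in every pair.

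Kcnk12 and Kcnk13, the pair of halothane-inhibited THIK genes, went opposite ways with the inhibitor. Kcnk12 stood at 0.807, 0.358, 4.33 and 0.393 CPM: the stiff library held 126 counts and the other libraries between 12 and 27. It was 5.37-fold higher (3.52 to 8.47) in stiff than in soft, 11.0-fold lower (6.34 to 20.8) with A83-01 on stiff matrix and 2.25-fold lower (1.10 to 4.88) on soft matrix. Kcnk13 stood at 0.299, 0.716, 0.378 and 2.83 CPM: stiff with A83-01 held 101 counts and the other libraries between 10 and 24. It was 7.49-fold higher (4.01 to 15.5) with A83-01 on stiff matrix and 2.40-fold higher (1.10 to 5.62) on soft matrix. Each of these genes reached 1 CPM in that 1 library only. In the quasi-likelihood test of edgeR (Benjamini-Hochberg adjusted) neither inhibitor difference passed (Kcnk12: log2 −2.42, SE 0.704, adjusted p = 0.288, Kcnk13: log2 2.15, SE 0.620, adjusted p = 0.287). Kcnk5, an alkaline-activated background channel, stood at 1.08, 1.46, 0.241 and 1.15 CPM and was lowest in stiff, 4.47-fold lower (1.96 to 11.9) than in soft and 4.78-fold higher (2.12 to 12.6) in stiff with A83-01.

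No inward rectifier gene passed the stiffness test. Kcnj2 stood at 6.93, 10.9, 4.30 and 6.31 CPM, with the A83-01 library the higher on each matrix and the soft library the higher of each matched pair. It was 1.61-fold lower (1.29 to 2.02) in stiff than in soft and 1.72-fold lower (1.45 to 2.04) with A83-01 in both, and the stiffness difference did not pass the quasi-likelihood test of edgeR (Benjamini-Hochberg adjusted) (log2 −0.74, SE 0.201, adjusted p = 0.111). Kcnj9, a subunit of G-protein-gated rectifiers, stood at 1.17, 0.955, 0.378 and 0.645 CPM and was 3.08-fold lower (1.55 to 6.67) in stiff than in soft. Its annotation overlaps Igsf8, so part of its count may be shared. Kcnj15 stood at 0.538, 0.477, 0.585 and 1.12 CPM and was 2.35-fold higher (1.29 to 4.50) on stiff matrix with A83-01 in both, and Kcnj14, at 2.87, 2.21, 2.89 and 2.27 CPM, was not 2-fold apart in any pair.

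Among small-conductance calcium-activated potassium channels, Kcnn3, the endothelial member, stood at 1.94, 4.33, 1.24 and 2.55 CPM. Both A83-01 libraries lay above both others, 2.06-fold higher (1.39 to 3.12) on stiff and 2.23-fold higher (1.65 to 3.03) on soft matrix, yet in the quasi-likelihood test of edgeR (Benjamini-Hochberg adjusted) this did not pass (log2 1.10, SE 0.318, adjusted p = 0.286). Kcnn1 stood at 1.91, 1.34, 0.516 and 0.785 CPM, lower in both stiff libraries, 3.71-fold lower (2.09 to 7.0) without inhibitor and 1.71-fold lower (1.04 to 2.85) with it in both.

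No voltage-gated calcium channel pore gene passed the test for stiffness or for A83-01. Cacna1c, the L-type pore that carries most calcium into vascular muscle on depolarisation, stood at 54.3, 33.2, 65.8 and 57.3 CPM, with soft with A83-01 apart below the other libraries. Its annotation overlaps Dcp1b, at between 7.5 and 12.9 CPM, so some reads may be shared. It was 1.21-fold higher (1.14 to 1.29) on stiff than on soft matrix, 1.72-fold higher (1.60 to 1.86) with A83-01 in both, and did not pass the quasi-likelihood test of edgeR (Benjamini-Hochberg adjusted) (log2 0.53, SE 0.171, adjusted p = 0.149). The T-type pores, which open at more negative potentials, diverged. Cacna1g stood at 24.7, 9.49, 22.5 and 2.75 CPM, close between soft and stiff and lower in both A83-01 libraries, 2.60-fold lower (2.28 to 2.97) on soft and 8.17-fold lower (6.60 to 10.2) on stiff matrix. With A83-01 in both it was 3.45-fold lower (2.74 to 4.38) on stiff matrix. Its stiffness difference did not pass the quasi-likelihood test of edgeR (Benjamini-Hochberg adjusted) (log2 −0.90, SE 0.417, adjusted p = 0.262), but did so after scaling by total counts alone (adjusted p = 0.0230, Benjamini-Hochberg, edgeR). Its inhibitor difference did not pass the quasi-likelihood test of edgeR (Benjamini-Hochberg adjusted) (log2 −2.16, SE 0.426, adjusted p = 0.189), but DESeq2's Wald test with that adjustment called it (adjusted p = 4.0e-05), as did the quasi-likelihood test after scaling by total counts alone with the same Benjamini-Hochberg adjustment (adjusted p = 1.9e-05). Cacna1h stood at 1.28, 0.627, 2.58 and 3.20 CPM and was higher in both stiff libraries, 2.01-fold higher (1.36 to 2.99) without inhibitor and 5.10-fold higher (3.19 to 8.56) with it in both, without passing in the quasi-likelihood test.

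With A83-01 the L-type pore thus outweighed the T-type pore Cacna1g by more than without it: the FPKM ratio of Cacna1c to Cacna1g was 2.52 in soft, 3.98 in soft with A83-01, 3.22 in stiff and 22.8 in stiff with A83-01. Pores best known from neurons were also present. Cacna1a, of P/Q-type channels, stood at 16.6, 13.5, 9.70 and 8.05 CPM, lower in both stiff libraries, 1.71-fold lower (1.48 to 1.98) without inhibitor and 1.68-fold lower (1.45 to 1.95) with it in both, and the quasi-likelihood test of edgeR (Benjamini-Hochberg adjusted) gave log2 −0.76, SE 0.166, adjusted p = 0.0739. Cacna1b, of N-type channels, stood at 3.76, 1.70, 4.88 and 1.49 CPM, lower in both A83-01 libraries, 2.21-fold lower (1.61 to 3.08) on soft and 3.29-fold lower (2.38 to 4.59) on stiff matrix. The 9 Schwann cell and nerve markers summed to 73.1, 60.5, 175 and 143 CPM, mostly Tubb3, which rose on stiff matrix. Their part in these levels was not tested.

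Accessory calcium channel subunits were dominated by Cacnb3. It stood at 78.5, 59.8, 76.9 and 48.0 CPM, level between soft and stiff and lower in both A83-01 libraries, 1.31-fold lower (1.24 to 1.39) on soft and 1.60-fold lower (1.5 to 1.71) on stiff matrix, and the inhibitor difference did not pass the quasi-likelihood test of edgeR (Benjamini-Hochberg adjusted) (log2 −0.54, SE 0.138, adjusted p = 0.249). Cacnb2, the beta subunit most used with the cardiac L-type pore, stood at 0.209, 0.328, 0.413 and 1.15 CPM and reached the minimum in stiff with A83-01 alone, 2.79-fold higher (1.44 to 5.82) than in stiff. Cacnb1 stood at 2.09, 1.43, 2.68 and 1.32 CPM. Its annotation overlaps the ribosomal protein gene Rpl19, at between 613 and 946 CPM, and that of Cacnb3 overlaps the tubulin gene Tuba1c, so shared reads were possible in both. Cacng7, a gamma subunit, stood at 0.329, 0.239, 1.14 and 0.533 CPM with its highest level in stiff. The other gamma subunits had under 10 counts in each library, 5 of them 0 throughout.

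Of the TRP channels, Trpv2 rose on stiff matrix. It stood at 28.3, 36.1, 48.4 and 63.0 CPM, with both stiff libraries above both soft libraries and the A83-01 library the higher on each matrix. It was 1.71-fold higher (1.57 to 1.86) on stiff than on soft matrix and 1.75-fold higher (1.63 to 1.87) with A83-01 in both. It passed the quasi-likelihood test of edgeR (Benjamini-Hochberg adjusted) (log2 0.79, SE 0.129, adjusted p = 0.0415), and with DESeq2 size factors in place of TMM the same test with Benjamini-Hochberg adjustment gave adjusted p = 0.0517. Macrophages are a known source of Trpv2. The leukocyte and macrophage markers summed to 84.1, 130.3, 58.5 and 61.4 CPM, with Cd68 the largest share in each library. In the stiffness test Adgre1 and Cd74 fell and Lyz2, at 1.58, 1.02, 23.5 and 6.09 CPM, rose. Their part in the Trpv2 result was not tested.

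Trpv4, the vanilloid channel of endothelial mechanosensing, had the reverse order of matrices. It stood at 8.04, 7.28, 5.02 and 3.79 CPM, lower in both stiff libraries, 1.60-fold lower (1.30 to 1.97) without inhibitor and 1.92-fold lower (1.55 to 2.39) with it in both, and did not pass the quasi-likelihood test of edgeR (Benjamini-Hochberg adjusted) (log2 −0.81, SE 0.222, adjusted p = 0.112). Among TRPC genes, Trpc6 stood at 17.1, 15.6, 16.6 and 24.7 CPM, with stiff with A83-01 above the other libraries by 1.48-fold (1.33 to 1.66) against stiff. The abundant Trpm4 and Trpm7 were level between soft and stiff. Trpm4 stood at 43.8, 34.2, 42.9 and 34.9 CPM and Trpm7 at 49.3, 57.6, 46.6 and 50.2 CPM, and their ratios of stiff to soft were 0.980 (0.908 to 1.06) and 0.946 (0.880 to 1.02). Trpm8, the cold sensor, had 16, 37, 48 and 20 counts, highest in stiff. Its annotation overlaps that of the centromere gene Hjurp, which stood at 13.9, 16.9, 13.6 and 25.4 CPM, so its count is uncertain.

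The wider set of channel and calcium-handling genes, listed with earlier results of these data known, was read from the same fits. Of 26 channel genes outside the naming rule, 14 were tested, and 1 rose and 0 fell on stiff matrix, where 2.35% of all genes rose and 3.29% fell. That gene was Cacna2d1, the alpha-2-delta subunit that raises calcium channel density at the membrane. It stood at 16.1, 9.70, 33.9 and 21.6 CPM, higher in both stiff libraries, and the quasi-likelihood test of edgeR (Benjamini-Hochberg adjusted) gave log2 1.11, SE 0.148, adjusted p = 0.0277. Piezo2, a mechanically gated cation channel, stood at 9.92, 2.48, 11.3 and 2.05 CPM, 5.51-fold lower (4.26 to 7.20) with A83-01 on stiff and 4.00-fold lower (3.14 to 5.16) on soft matrix. In the quasi-likelihood test of edgeR (Benjamini-Hochberg adjusted) its inhibitor difference did not pass (log2 −2.23, SE 0.244, adjusted p = 0.0955), while DESeq2's Wald test called it (adjusted p = 2.0e-05). The list's median log2 ratio was 0.18 in stiff against soft and −0.04 with A83-01 in both, beside 0.00 and 0.01 over all genes.

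Of 28 genes for calcium stores, pumps and exchangers, 20 were tested, and 4 rose and 0 fell on stiff matrix, where 2.35% of all genes rose and 3.29% fell. Itpr1, an inositol trisphosphate receptor that releases calcium from the endoplasmic reticulum, stood at 35.3, 36.7, 70.8 and 79.5 CPM. Atp2b4, a plasma membrane calcium pump, stood at 48.3, 31.3, 106 and 82.0 CPM, and Slc8a1, the sodium-calcium exchanger, at 5.62, 5.28, 14.7 and 16.8 CPM. Casq2, a calcium-binding protein of the store, stood at 0.388, 0.537, 4.95 and 3.56 CPM. In each of these 4 genes both stiff libraries lay above both soft libraries. Adjusted p was 0.0230, 0.0186, 0.0242 and 0.0280 in this order, by the quasi-likelihood test of edgeR (Benjamini-Hochberg adjusted). Casq1 did not pass: it stood at 0.388, 0.537, 1.96 and 2.10 CPM. The list's median log2 ratio was 0.43 in stiff against soft and 0.39 with A83-01 in both.

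Of 12 calcium-dependent target genes, 10 were tested, and 1 rose and 1 fell on stiff matrix, where 2.35% of all genes rose and 3.29% fell. Mylk, the calmodulin-dependent myosin light chain kinase that turns calcium into contraction, stood at 34.6, 31.2, 249 and 279 CPM and by the quasi-likelihood test of edgeR (Benjamini-Hochberg adjusted) rose on stiff matrix (log2 3.00, SE 0.166, adjusted p = 0.00680). Nfatc4, a transcription factor that calcineurin activates, stood at 237, 143, 106 and 82.8 CPM and by that Benjamini-Hochberg adjusted quasi-likelihood test fell (log2 −0.97, SE 0.161, adjusted p = 0.0424). The list's median log2 ratio was 0.24 in stiff against soft and 0.19 with A83-01 in both. With A83-01, 0 genes of these 3 lists passed the quasi-likelihood test in either direction, where 0% of all genes rose and 0.044% fell. DESeq2 called Piezo2 down, and with total-count scaling Piezo2 was called down and Abcc9 and Slc8b1 up in the edgeR fit.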

How the data were processed

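Messenger RNA of 4 libraries was sequenced. The authors deposited whole-number read counts per gene and, separately, FPKM values. HISAT2, edgeR and build Rnor_6.0 are named, with no role or version, per the submitters' processing notes, and the counter, annotation and strand setting are not given in sources used here.

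From the deposited counts, libraries were scaled by TMM and genes with at least 1 CPM in at least 1 library were kept, 13634 of 23608. Both effects were fitted in 1 additive model with edgeR 4.0.16 (quasi-likelihood test, Benjamini-Hochberg adjustment over all genes tested, threshold 0.05, R 4.3.3). Its residual is the difference between the responses in the 2 arms, so p-values reflect the spread of these libraries alone. DESeq2 1.42.0 and limma-voom (limma 3.58.1) were alternatives, with other scalings, filters, prior counts and fold thresholds. Library pairs were described by their CPM ratio with an exact Clopper-Pearson 95% interval of the counts. A pair counted as apart when its log2 ratio, with a prior count of 2, reached 2-fold and the interval excluded equality. The fit was tested on simulated data. FPKM served only to compare levels between genes and as an alternative scale. Named genes were those called, those most apart in each pair, the most abundant of each family and a fixed list of channels, with neighbours of the same family given for comparison. The members and all gene lists were chosen with earlier results of these data known. All 131 symbols were found in RefSeq's GRCr8 table, used for names, overlaps between genes and upstream sequences, since no Rnor_6.0 annotation was used here. Positions therefore refer to GRCr8 only. A few channel genes and 1 marker gene are counted in the totals but not reported here by name or drawn.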

Additional observations from a re-analysis of the deposited data

Results flagged for a closer look

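The values below had opposite signs under the same contrast in the 2 arms, each from 1 library per group, and the differences between arms were not tested. The log2 ratio of Trpm8 with A83-01 was −1.46 on stiff and 1.11 on soft matrix, and its stiff-to-soft log2 ratio was 1.67 without and −0.91 with A83-01. The stiff-to-soft log2 ratio of Kcne4 was −1.01 without and 0.22 with A83-01.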

How the results depend on the processing

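With the other factor left out of the model, 0 channel genes rose on stiff matrix, and the quasi-likelihood test of edgeR (Benjamini-Hochberg adjusted) gave adjusted p = 0.159 for Kcnd3, 0.151 for Kcnmb1 and 0.184 for Trpv2. Scaling by total counts alone gave 5 up and 1 down for stiffness, adding Kcnip1 and Kcnk3 up and Cacna1g down, and 2 up and 3 down for A83-01. DESeq2 gave 1 up and 2 down for A83-01. In stiff against soft, total counts and FPKM each gave 6 genes at least 2-fold up. A 1.5-fold threshold gave 8 down, and no filter gave 9 down. With A83-01 in both, a 1.5-fold threshold gave 19 up and 8 down, and no filter 8 down. For A83-01 on stiff matrix, a 1.5-fold threshold gave 13 down and FPKM 4 down. On soft matrix, a 1.5-fold threshold gave 8 up and 11 down, no filter 13 down, and FPKM 2 up. Beyond the changes that the filter and threshold make by construction, the cause was not tested. The share of all genes called is given above for DESeq2 and was not counted for the other settings here. Counts without that share describe the list and support nothing about it. The other 56 alternative counts stayed within 1.5 times their reported value. Of the alternative values for single genes, 525 kept their direction and call, 11 newly passed the test, 4 no longer passed, 10 moved in size and 0 reversed. No paired analysis was possible because each group has 1 library, and the shared replicate number is only a name. Leaving out a library left the additive model no residual degrees of freedom, so it was not run. Depth limits the 88 channel genes under 1 CPM.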

Other observations

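Some channel genes below 1 CPM in every library, chosen after their values were seen, had uneven counts, given first for soft matrix without and with A83-01 and then for stiff matrix without and with it. Cacna1s, the L-type pore of skeletal muscle, had 9, 0, 27 and 16 counts. Kcnt2, a sodium-activated potassium channel, had 23, 0, 7 and 3. Trpm1 had 2, 22, 0 and 12, Trpm3 had 9, 15, 0 and 18, and Kcna6 had 0, 0, 0 and 11. In the fit without a filter on low counts, 0 of these passed the quasi-likelihood test of edgeR for either effect.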
